A study of Rattus norvegicus with 11 samples.

Results

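The genes described here are the cathepsins, the subunits of the vacuolar proton pump and the Lamp membrane glycoproteins, 45 of the 14506 genes that the array table names by a single symbol. Members were taken by symbol: names beginning Cts, Atp6v0, Atp6v1 or Atp6ap, and Lamp1 to Lamp3. No expression value entered that choice of members, except that a gene with several probe sets was represented by the one with the highest mean over all arrays. The gene families themselves were chosen with earlier results of these data known. There were 19 cathepsins, 23 pump genes and 3 Lamp genes, and all 45 carried the same symbol in RefSeq.

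Lysosomes are the acidic organelles in which cells digest material they have taken up or withdrawn from their own cytoplasm. The vacuolar proton pump acidifies them: its V1 sector, on the cytoplasmic side, splits ATP, and its V0 sector, in the membrane, passes the protons. Cathepsins are the proteases inside, made as inactive precursors that mature in acid, and Lamp proteins coat the inner face of the limiting membrane. The visceral endoderm of the rodent yolk sac, which derives from the hypoblast, is known for strong uptake of maternal material and its digestion in lysosomes.

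The line DAc2, rat embryonic stem cells, was turned into hypoblast stem cells, and RNA was profiled on 11 Affymetrix Rat Gene 1.0 ST arrays. In the feeder arm the stem cells came from a layer of mouse embryonic fibroblasts, in N2B27 medium with 3 µM of the GSK3 inhibitor CHIR99021 and 0.5 µM of the MEK inhibitor PD0325901. In the feeder-free arm they came from laminin, and the N2B27 medium held human BMP4 at 5 ng/mL, PD0325901 at 2 µM and CHIR99021 at 3 µM. Both arms were then moved to a medium made for rat multipotent adult progenitors, which held fetal bovine serum at 2% with PDGF, EGF and LIF, and were sampled at days 0, 7, 17 and 32. A single array stands for each day of the feeder arm, which therefore shows no spread of its own. Feeder-free cells were measured once at day 0 and in pairs afterwards; the labels call the pairs biological replicates and do not say if separate cultures were used. P-values for changes over days and between arms come from a fit with terms for day and culture, whose spread also holds arm-by-day differences. Tests of differences between the arms in change use the spread within the 3 feeder-free pairs alone, which may be technical. All arrays come from a single cell line, and the labels do not say whether feeder cells were removed before extraction or present during conversion. Array and culture cannot be told apart within a day of the feeder arm or at day 0 of the feeder-free arm.

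Values are log2 expression values, so that a difference of 1 is a doubling. They are not comparable between genes, since each gene has its own probes. Background was read from 1240 genes of olfactory and vomeronasal receptors; the 95th percentile of their values was 8.10, and a value under that bound is called dim. Hypoblast markers averaged 9.03, 10.81, 13.53 and 13.62 at days 0, 7, 17 and 32 of the feeder arm, against 9.34, 13.24, 13.82 and 13.73 in the feeder-free arm. Fibroblast markers averaged 10.28, 9.04, 8.44 and 8.28 on the same days of the feeder arm, against 8.14 to 8.25 in the feeder-free arm. Of these fibroblast genes Dcn and Lum were dim in every group. In bulk samples, fewer cells of a type and less RNA per cell cannot be told apart.

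Of the 45 genes, 33 were above the background bound in at least 1 group of arrays. The 12 that were dim in every group were the placental cathepsins Cts7, Cts8, Ctsj, Ctsm, Ctsq and Ctsr, the restricted cathepsins Ctsg, Ctss and Ctsw, the tissue-restricted pump subunits Atp6v0d2 and Atp6v1b1, and Lamp3. Over all genes, 3102 of 14506 were dim in every group.

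Promoters of 5 genes were picked to stand for patterns described below: Ctsc, Ctsz and Ctsl rose, Ctsd fell and Lamp1 changed little. These promoters do not represent the whole set of genes, as the motif counts below show. Each is the 250 bases before the gene's start, from RefSeq on the rat assembly GRCr8, printed 5′ to 3′ on the gene's own strand. They lie at chr1:151440799-151441048 on the plus strand for Ctsc, chr3:183653848-183654097 on the minus strand for Ctsz, chr17:769854-770103 on the plus strand for Ctsl, chr1:206968822-206969071 on the minus strand for Ctsd and chr16:83075064-83075313 on the minus strand for Lamp1. Capitals mark CACGTG, the core of the element bound by TFEB and its relatives, and TCACGTGA, a longer form that contains it. Both motifs read the same on both strands.
Ctsc: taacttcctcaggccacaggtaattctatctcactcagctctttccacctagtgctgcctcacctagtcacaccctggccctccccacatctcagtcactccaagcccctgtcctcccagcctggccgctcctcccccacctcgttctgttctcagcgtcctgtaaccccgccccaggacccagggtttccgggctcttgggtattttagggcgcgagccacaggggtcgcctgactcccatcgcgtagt
Ctsz: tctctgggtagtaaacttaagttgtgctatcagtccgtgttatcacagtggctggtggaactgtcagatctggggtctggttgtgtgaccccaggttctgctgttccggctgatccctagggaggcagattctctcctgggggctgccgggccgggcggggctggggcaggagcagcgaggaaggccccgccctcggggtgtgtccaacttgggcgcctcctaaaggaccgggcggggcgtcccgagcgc
Ctsl: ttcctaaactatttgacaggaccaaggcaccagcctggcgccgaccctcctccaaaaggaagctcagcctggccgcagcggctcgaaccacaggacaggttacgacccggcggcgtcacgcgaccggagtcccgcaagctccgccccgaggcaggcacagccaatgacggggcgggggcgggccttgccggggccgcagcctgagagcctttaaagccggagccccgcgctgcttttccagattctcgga
Ctsd: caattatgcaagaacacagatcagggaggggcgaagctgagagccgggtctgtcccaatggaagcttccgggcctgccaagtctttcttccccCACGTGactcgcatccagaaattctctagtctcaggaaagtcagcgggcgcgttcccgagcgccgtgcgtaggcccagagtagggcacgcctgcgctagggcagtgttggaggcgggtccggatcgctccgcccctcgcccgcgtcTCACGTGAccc
Lamp1: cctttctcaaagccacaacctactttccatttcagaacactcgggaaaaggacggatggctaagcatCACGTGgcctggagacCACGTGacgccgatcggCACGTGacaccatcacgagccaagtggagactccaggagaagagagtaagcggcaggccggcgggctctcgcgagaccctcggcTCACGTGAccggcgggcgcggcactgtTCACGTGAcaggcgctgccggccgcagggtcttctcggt

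A promoter was listed for 37 of the 45 genes, the others being Atp6v0d2, Atp6v0e2, Atp6v1b2, Atp6v1c1, Atp6v1h, Ctsb, Ctsq and Ctsw. CACGTG stood in 4 of the 37 windows (10.8%), those of Atp6v0d1, Ctsd, Ctsf and Lamp1, and in 5.59% of 33469 promoters of the same length. TCACGTGA stood in 3 of the 37 (8.11%), those of Atp6v0d1, Ctsd and Lamp1, and in 0.657% of all promoters. The Lamp1 window held 5 copies of CACGTG and the Ctsd window 2, the nearer of which ended 5 bases before the start. Of the 3 cathepsins that rose most, Ctsc, Ctsz and Ctsl, none had these letters in its window. Neither did Ctsh, Atp6v1c2 and Atp6v1f, which also rose, or Atp6v1a, Lamp2, Atp6v0a1 and Atp6ap1, which fell. Of the 4 genes whose window held a motif, Ctsd fell to day 32 and Ctsf, Lamp1 and Atp6v0d1 did not pass that test. Lamp1 and Atp6v0d1 passed the test between the arms, and Ctsf that of the change to day 7 between the arms. Whether the motif bears on expression was not tested.

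The first comparison asked how lysosomal genes differ between converted cells at day 32 and the stem cells at day 0. Among the 8 cathepsins found in most tissues, Ctsc, Ctsz, Ctsl and Ctsh rose and Ctsd fell, while Ctsa, Ctsb and Ctsf did not pass the test. Of the 23 pump genes 3 rose and 4 fell, and Lamp2 fell among the Lamp genes. With limma, 13 of 45 genes passed (28.9%), against 31.0% of all genes, of which 17.4% rose and 13.7% fell. The median change was -0.01 over the 45 genes and 0.05 over all genes.

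Ctsc encodes dipeptidyl peptidase 1, which trims dipeptides from protein ends and activates granule proteases. Its log2 value was 8.94, 9.46, 13.62 and 13.54 at days 0, 7, 17 and 32 of the feeder arm. In the feeder-free arm it was 8.02 at day 0, 10.80 and 10.90 at day 7, 12.04 and 12.12 at day 17, and 12.54 and 12.47 at day 32. Every array of days 17 and 32 lay above every array of days 0 and 7 in both arms, and the feeder-free day 0 array was dim. With limma, Ctsc was 4.45 ± 0.57 higher on the log2 scale at day 32 than at day 0 (SE, adjusted p = 0.0008095), the largest fitted change among the 45 genes. Since the feeder-free start was dim, the change in that arm is given as a bound: the level at day 32 was at least 21.2-fold higher, set against the background bound.

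Ctsz encodes a carboxypeptidase that removes single residues. It had values of 11.77, 12.93, 14.83 and 14.94 at days 0, 7, 17 and 32 of the feeder arm. The feeder-free values were 11.18 at day 0, 14.30 and 14.39 at day 7, 14.62 and 14.70 at day 17, and 14.83 and 14.73 at day 32. The rise from the stem cells to day 32 was 3.33 ± 0.39 with limma (SE, adjusted p = 0.0005361), or 10.1-fold, and the arms differed by 0.16 at day 32.

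Ctsl, a cysteine endopeptidase, had 13.14, 13.94, 15.30 and 15.24 over the days of the feeder arm. Without feeder cells it had 13.31 at day 0, 15.10 and 15.18 at day 7, 15.35 and 15.42 at day 17, and 15.08 and 15.00 at day 32. Both day 0 arrays were the lowest of their arm, and the change to day 32 was 1.83 ± 0.28 (SE, limma, adjusted p = 0.001656). Ctsh, an aminopeptidase, had 11.22, 11.10, 12.21 and 12.01 in the feeder arm. Its feeder-free values were 10.55 at day 0, 10.81 and 10.96 at day 7, 11.53 and 11.57 at day 17, and 11.89 and 11.84 at day 32. It rose by 1.10 ± 0.14 (SE, limma, adjusted p = 0.0008514), and in each arm days 17 and 32 lay above days 0 and 7.

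Ctsd, the main aspartic protease of the lysosome, went the other way. Its values were 13.16, 13.24, 12.45 and 12.35 at days 0, 7, 17 and 32 of the feeder arm. The feeder-free arm had 13.43 at day 0, 13.80 and 13.91 at day 7, 12.31 and 12.37 at day 17, and 12.15 and 12.19 at day 32. Arrays of days 17 and 32 lay below those of days 0 and 7 with no overlap in either arm. The change to day 32 was -1.09 ± 0.18 (SE, limma, adjusted p = 0.002243), and 2.13-fold lower.

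Ctsb, a cysteine protease, had 14.45, 14.53, 14.97 and 14.92 in the feeder arm. It had 14.88 at day 0, 14.98 and 15.06 at day 7, 14.95 and 15.03 at day 17, and 14.73 and 14.67 at day 32 without feeder cells. The arms went opposite ways to day 32, by 0.47 and -0.18, and the fitted change of 0.08 ± 0.16 (SE) did not pass (limma, adjusted p = 0.771). Ctsa, which shields Neu1 and Glb1 from breakdown, changed by 0.30 ± 0.13 (SE) and Ctsf, another cysteine protease, by 0.29 ± 0.20 (SE), and neither passed in limma.

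**Figure D1:**
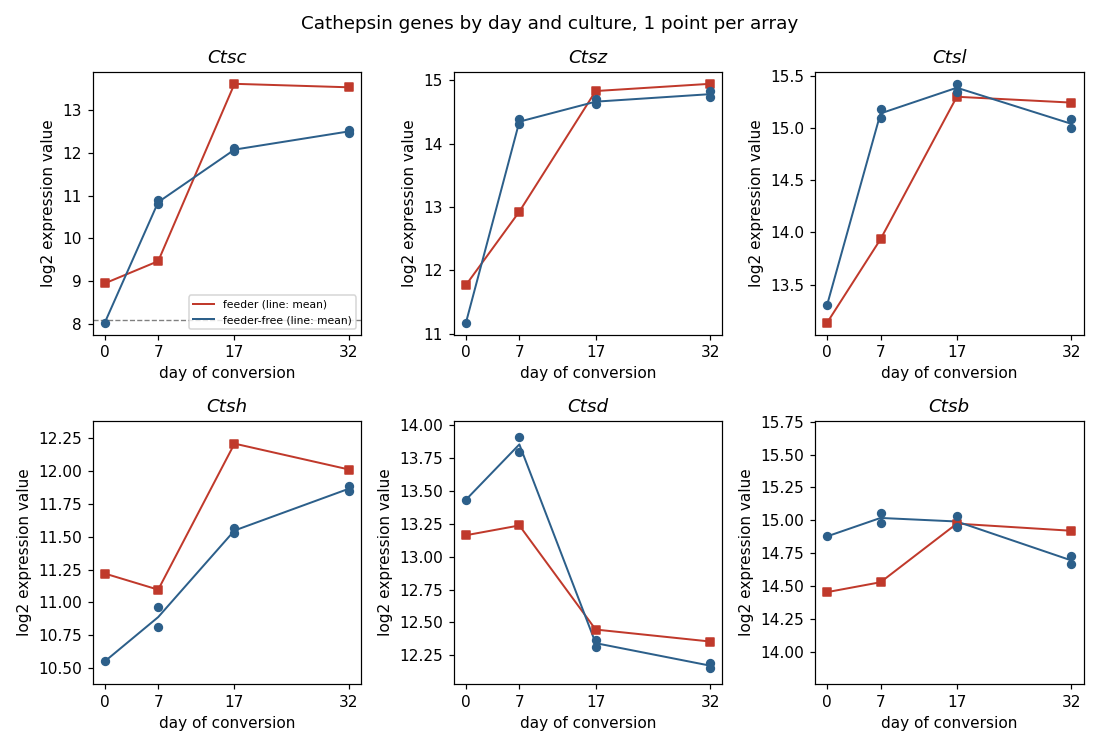
Log2 expression value (vertical axis, own range per gene) by day of conversion for 6 cathepsin genes; points are arrays, lines join group means, feeder arm in red and feeder-free arm in blue, and the dashed line is the background bound of 8.10. Ctsc, Ctsz, Ctsl and Ctsh are higher and Ctsd lower at days 17 and 32 than at day 0 in both arms, and Ctsc, Ctsz and Ctsl stand higher at day 7 without feeder cells.

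The remaining cathepsins gave no such change. The aspartic protease Ctse lay between 8.50 and 9.44 and Ctsk, the osteoclast collagenase, between 7.89 and 8.38 over all arrays. Ctsg of neutrophils, Ctss of antigen-presenting cells and Ctsw of lymphocytes stayed between 7.00 and 7.49, and the 6 placental genes between 5.41 and 7.47. None of these 11 passed the test of day 32 against day 0. Ctsc and Ctss are abundant in blood-derived cells, and the leukocyte marker list averaged 7.88 to 8.20 in every group, with Ptprc at 7.17 to 7.29 and Itgam, Tyrobp and Aif1 also dim throughout. The other 6 of its 10 genes were above the bound in at least 1 group, up to 11.26 for Laptm5 at day 0 of the feeder arm. Between day 32 and day 0, Cd14 rose by 1.13 ± 0.18 (SE, limma, adjusted p = 0.001789) and Laptm5 fell by 3.11 ± 0.35 on the log2 scale (SE, limma, adjusted p = 0.0004985). Csf1r rose by 1.60 ± 0.33 between day 7 and day 0 (SE, limma, adjusted p = 0.01532). Their part in the Ctsc values was not tested.

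Pump subunits moved by less and in both directions. Atp6v1a encodes the catalytic A subunit, where ATP is split. It had 13.22, 12.65, 12.73 and 12.53 at days 0, 7, 17 and 32 of the feeder arm. In the feeder-free arm it had 13.68 at day 0, 12.74 and 12.86 at day 7, 12.70 and 12.80 at day 17, and 12.48 and 12.42 at day 32. Day 0 was the highest array of both arms, and the change to day 32 was -0.997 ± 0.124 (SE, limma, adjusted p = 0.0007143). A second probe set of the gene fell by 0.99 on the log2 scale in the feeder arm and by 1.55 in the feeder-free arm.

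Atp6v0e2 encodes an isoform of the small e subunit of V0. Its values were 10.72, 9.97, 9.95 and 9.97 in the feeder arm, and 10.59 at day 0, 9.30 and 9.50 at day 7, 9.52 and 9.76 at day 17, and 9.87 and 9.79 at day 32 in the feeder-free arm. It fell by 0.73 ± 0.13 on the log2 scale (SE, limma, adjusted p = 0.003724), with both day 0 arrays above all later ones. Atp6v0a1 encodes an isoform of the large a subunit, which helps to set where the pump sits. Its feeder values were 12.67, 12.87, 12.35 and 12.54, and its feeder-free values were 13.72 at day 0, 12.44 and 12.54 at day 7, 12.23 and 12.28 at day 17, and 12.30 and 12.23 at day 32. The fitted change was -0.84 ± 0.27 (SE, limma, adjusted p = 0.0433), made up of -0.13 in the feeder arm and -1.45 in the feeder-free arm. Without the feeder-free day 0 array it was -0.15 (limma, adjusted p = 0.499).

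The remaining pump gene that fell was Atp6ap1, the accessory subunit Ac45, by 0.50 ± 0.14 on the log2 scale (SE, limma, adjusted p = 0.024). Those that rose were V1 subunits: Atp6v1c2 by 0.54 ± 0.12 (adjusted p = 0.007329), Atp6v1b2 by 0.34 ± 0.09 (adjusted p = 0.0159) and Atp6v1f by 0.32 ± 0.09 (adjusted p = 0.0258, all SE, limma). Atp6v1c2, an isoform of the stalk subunit C, had 7.83, 7.84, 8.20 and 8.35 in the feeder arm, and 7.82 at day 0, 8.17 and 8.32 at day 7, 8.33 and 8.48 at day 17, and 8.45 and 8.39 at day 32 without feeder cells. Both day 0 arrays were dim, so that its starting level was not told from background; against the background bound its change was at least 0.25 in the feeder arm and 0.32 in the feeder-free arm. Among the 16 pump genes that did not pass were Atp6v1c1, Atp6v1d, Atp6v1e1, Atp6v1e2, Atp6v1g1, Atp6v1g2, Atp6v1g3 and Atp6v1h of V1, and Atp6v0a4, Atp6v0b, Atp6v0c, Atp6v0d1 and Atp6v0e1 of V0. Atp6v0c, Atp6v1a, Atp6v1e1 and Atp6v1g1 have pseudogenes in RefSeq, and whether these share probe signal is uncertain.

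Lamp2, a membrane glycoprotein that also serves as receptor in chaperone-mediated autophagy, had 13.83, 14.02, 13.40 and 13.47 in the feeder arm. The feeder-free arm had 14.15 at day 0, 13.06 and 13.26 at day 7, 12.82 and 12.95 at day 17, and 12.76 and 12.53 at day 32. It fell by 0.98 ± 0.24 on the log2 scale (SE, limma, adjusted p = 0.0141), with -0.36 in the feeder arm and -1.50 in the feeder-free arm. Lamp1, another membrane glycoprotein, had 13.86, 14.19, 14.10 and 14.08 with feeder cells. Its feeder-free values were 14.44 at day 0, 14.33 and 14.43 at day 7, 14.41 and 14.49 at day 17, and 14.27 and 14.18 at day 32. Its change to day 32 of -0.02 ± 0.11 (SE) did not pass (limma, adjusted p = 0.927), with 0.22 in the feeder arm and -0.21 in the feeder-free arm.

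Without the feeder-free day 0 array 8 genes passed in place of 13, and the calls of Lamp2 (-0.42, adjusted p = 0.143), Atp6v0a1, Atp6ap1, Atp6v0e2, Atp6v1b2, Atp6v1c2 and Atp6v1f were lost. Of all genes, 17.5% passed without that array, against 31.0% with all arrays. The calls of Ctsc, Ctsz, Ctsl, Ctsh, Ctsd and Atp6v1a held under all 19 alternatives run. Over the same 19, the call of Atp6v0a1 was lost in 10, that of Atp6v1f in 5 and those of Atp6ap1 and Atp6v1b2 in 4 each. Those of Lamp2, Atp6v0e2 and Atp6v1c2 were lost in 1 each, without the feeder-free day 0 array.

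**Figure D2:**
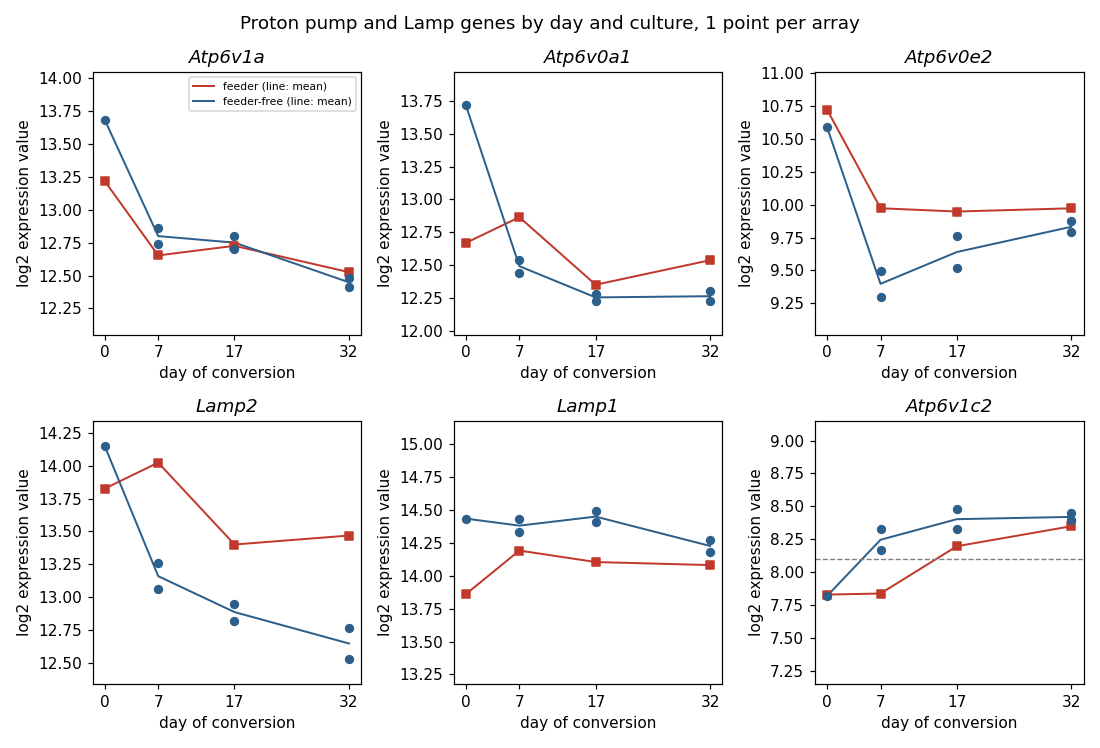
Log2 expression value (vertical axis, own range per gene) by day of conversion for 4 pump genes, Lamp2 and Lamp1; points are arrays, lines join group means, feeder arm in red and feeder-free arm in blue, and the dashed line is the background bound of 8.10. Atp6v1a, Atp6v0a1 and Lamp2 start highest at day 0 of the feeder-free arm, and Lamp1 stays within 13.86 to 14.49 on all arrays.

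**Figure D3:**
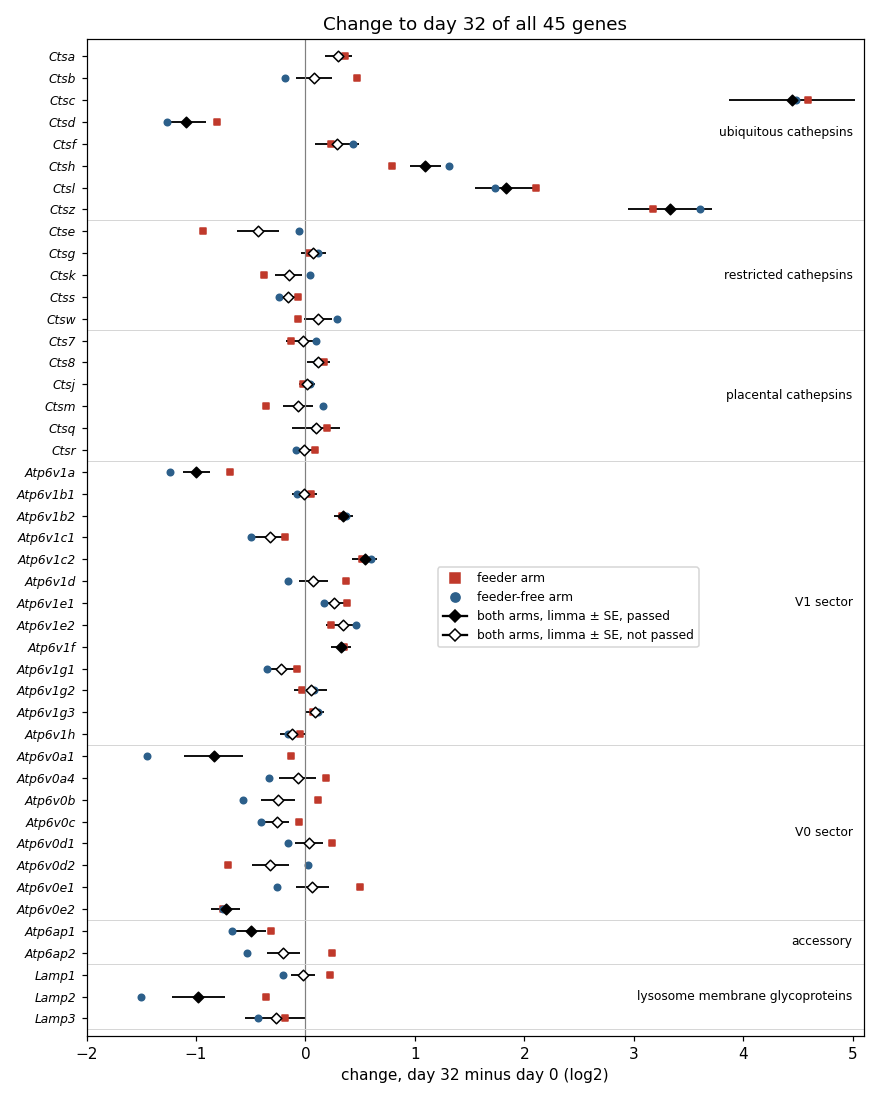
Change from day 0 to day 32 (horizontal axis, log2) of all 45 genes, grouped by role; red squares are the feeder arm, blue circles the feeder-free arm, and diamonds the fit over both arms with its SE, filled where the test passed. The 4 rising cathepsins lie between 1.10 and 4.45, while pump and Lamp genes lie between -0.997 and 0.54.

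Changes were spread unevenly over the days. From day 0 to day 7, Ctsz (2.37 ± 0.39), Ctsc (1.99 ± 0.57) and Ctsl (1.46 ± 0.28) rose, and Atp6v0e2 (-1.02 ± 0.13) and Atp6v1a (-0.72 ± 0.12) fell (log2 and SE, limma). These were 5 of 45 genes (11.1%), against 16.0% of all genes, of which 6.74% rose and 9.27% fell. When 1 array was omitted, 2 genes passed if it was the feeder-free one of day 0, 8 if it was the feeder one of day 0 and 13 if it was the feeder one of day 7. Of all genes, 4.72%, 18.1% and 30.7% passed under these omissions. The call of Ctsc was lost in 11 of 19 alternatives, and those of Ctsl, Ctsz and Atp6v1a were lost in 1, without the feeder-free day 0 array. In the feeder-free arrays alone, 22 of 45 passed, 11 up and 11 down, against 36.9% of all genes, 16.2% up and 20.7% down.

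From day 7 to day 17, Ctsc (2.21 ± 0.51), Ctsh (0.81 ± 0.13) and Atp6v1f (0.32 ± 0.08), a rotor-stalk subunit, rose, and Ctsd (-1.27 ± 0.16) fell (log2 and SE, limma). These were 4 of 45 genes (8.89%), against 12.8% of all genes, of which 9.1% rose and 3.65% fell. The calls of Ctsd and Ctsh held in all 19 alternatives, that of Atp6v1f was lost in 9, the quantile normalization among them, and that of Ctsc in 5, with changes of 1.23 to 2.69 over the 19. The count was 2 without either feeder-free day 17 array, the first feeder-free day 32 array or the feeder day 17 array, and 7 without either day 0 array. Of all genes, 2.51% to 6.9% passed where 2 of these did, and 16.2% where 7 did. From day 17 to day 32, 0 of 45 genes passed in limma, against 0.0% of all genes, with 1 of the 45 at an unadjusted p under 0.05. With the feeder-free arrays alone 2 passed (4.44%), against 7.32% of all genes. These intervals share arrays with each other and with the change to day 32.

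Whether the first week differed between the arms was tested directly as the change from day 0 to day 7 in the feeder arm minus that in the feeder-free arm. Of the 45 genes 13 passed (28.9%), against 22.0% of all genes, 7 with a more positive and 6 with a more negative change in the feeder arm, against 10.9% and 11.2% of all genes. The single arrays, those of the feeder arm and the feeder-free one of day 0, are assumed in this test to vary like the feeder-free pairs. Ctsc changed by 0.52 in the feeder arm and by 2.82 in the feeder-free arm, a difference of -2.31 ± 0.19 (SE, limma, adjusted p = 9.837e-07); the feeder-free start being dim, its change there was at least 2.75. Ctsz changed by 1.16 with feeder cells and by 3.17 without, a difference of -2.01 ± 0.19 (SE, limma, adjusted p = 3.352e-06). Ctsl changed by 0.80 in the feeder arm and by 1.83 in the feeder-free arm, a difference of -1.03 ± 0.19 (SE, limma, adjusted p = 0.001035). Ctsf changed by -0.08 in the feeder arm and by 0.89 in the feeder-free arm. With the dim Ctsq these were 5 of 19 cathepsins with a more negative change in the feeder arm, and 0 had a more positive one; the other 14 did not pass.

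Of the 23 pump genes 5 had a more positive change in the feeder arm, 1, the dim Atp6v0d2, had a more negative one and 17 did not pass. Of the 3 Lamp genes, Lamp2 and the dim Lamp3 had a more positive change. Atp6v0a1 changed by 0.20 in the feeder arm and by -1.22 in the feeder-free arm, a difference of 1.42 ± 0.19 (SE, limma, adjusted p = 6.99e-05). Lamp2 changed by 0.20 with feeder cells and by -0.99 without, a difference of 1.19 ± 0.22 (SE, limma, adjusted p = 0.001084). Atp6v0a4, the kidney isoform of the a subunit, Atp6v1c1, Atp6v0b of the proton-carrying ring and Atp6ap1 also differed this way, by 0.62 to 0.87. All 8 V0 genes were lower at day 7 than at day 0 without feeder cells, with a median of -0.41, and 6 of 8 were higher with feeder cells, with a median of 0.10. Over all genes, 8404 of 14506 were lower without feeder cells and 6666 higher with them, with medians of -0.05 and -0.02. Of the 8 V0 genes Atp6v0d2 was dim in every group, and all 8 feeder-free changes share the single day 0 array. The calls of Atp6ap1 and Atp6v0b were lost without the first feeder-free day 7 array.

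Lamp3, a glycoprotein of dendritic cells and lung, had 6.35, 7.51, 6.08 and 6.16 in the feeder arm. Feeder-free arrays had 6.67 at day 0, 6.54 and 6.47 at day 7, 6.21 and 6.34 at day 17, and 6.30 and 6.19 at day 32. The difference in change to day 7 was 1.33 ± 0.19 (SE, limma, adjusted p = 0.0001578), and it rests on 1 array, with all values dim. Ctsq, a placental cathepsin, and Atp6v0d2, the osteoclast isoform of subunit d, differed by -0.84 and -0.66, with all values dim. Trophoblast markers averaged 8.84, 10.12, 8.47 and 8.45 on the 4 days of the feeder arm, against 8.91, 11.97, 8.42 and 8.54 in the feeder-free arm, where Ctsq had 7.11 and 6.99 at day 7. Of the 10 trophoblast genes listed 9 were measured, all but Eomes. Among them Cdx2 went the other way from day 0 to day 7, from 13.13 to 9.50 with feeder cells and from 11.14 to 9.71 without. Tfap2c changed little, from 12.14 to 12.17 and from 12.48 to 12.34. The others were higher at day 7 than at day 0 in both arms. Whether trophoblast cells were present, and their part in the Ctsq values, was not tested.

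**Figure D4:**
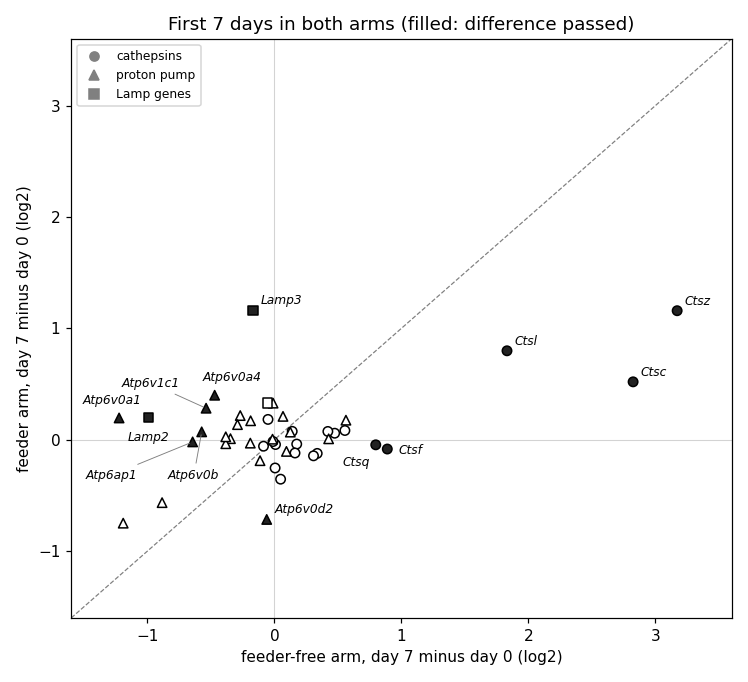
Change from day 0 to day 7 (log2) in the feeder arm (vertical axis) and in the feeder-free arm (horizontal axis) for all 45 genes; circles are cathepsins, triangles pump genes and squares Lamp genes, filled and named where the change differed between arms, and the dashed line marks equal change. Ctsc, Ctsz and Ctsl lie far below the line and Atp6v0a1, Lamp2 and Lamp3 above it.

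From day 7 to day 17, 5 of 19 cathepsins had a more positive change in the feeder arm, 0 had a more negative one and 14 did not pass. Ctsc changed by 4.16 in the feeder arm and by 1.23 in the feeder-free arm, a difference of 2.92 ± 0.17 (SE, limma, adjusted p = 1.003e-07). The difference was 1.59 for Ctsz, 1.12 for Ctsl, 0.98 for the dim Ctsq and 0.72 for Ctsd, which changed by -0.79 in the feeder arm and by -1.51 in the feeder-free arm. Lamp3 differed by -1.20. These were 6 of 45 genes (13.3%), against 19.7% of all genes, 5 more positive and 1 more negative, where all genes had 10.7% and 8.97%. After a further quantile normalization they were 11, 8 more positive and 3 more negative, against 12.4% and 10.7% of all genes. Both tests of pace use the day 7 arrays. In the feeder arm, hypoblast markers were likewise lower at day 7, as given above, and their part in these values was not tested.

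The last comparison asked which genes differed between the arms over all days. Atp6ap2, Atp6v0d1, Atp6v0b and Atp6v1f were higher in the feeder arm on each of the 4 days. So were Atp6v0c, Atp6v0e2, Atp6v1g1 and Ctsh, which makes 8 of 45 genes (17.8%), against 18.3% of all genes. Another 11 of the 45 were lower on all 4 days (24.4%), against 26.3% of all genes. Atp6ap2, the accessory subunit also known as the prorenin receptor, had 12.85, 13.02, 13.14 and 13.09 in the feeder arm. Feeder-free arrays had 12.35 at day 0, 12.14 and 12.17 at day 7, 12.14 and 12.22 at day 17, and 11.87 and 11.75 at day 32. No feeder array overlapped the feeder-free range, and the difference was 0.93 ± 0.10 (SE, limma, adjusted p = 0.0002255).

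Atp6v0d1, the common isoform of subunit d, which couples V1 to V0, had 13.99, 14.21, 14.25 and 14.23 in the feeder arm. Its feeder-free values were 13.52 at day 0, 13.18 and 13.32 at day 7, 13.20 and 13.39 at day 17, and 13.38 and 13.33 at day 32. The difference was 0.84 ± 0.09 (SE, limma, adjusted p = 0.0001465), and the ranges of the arms did not overlap. Atp6v0b had 12.14, 12.21, 12.35 and 12.26 with feeder cells. It had 11.92 at day 0, 11.25 and 11.45 at day 7, 11.50 and 11.44 at day 17, and 11.39 and 11.32 at day 32 without. It was 0.75 ± 0.11 higher in the feeder arm (SE, limma, adjusted p = 0.0008728). Atp6v1f had 12.60, 12.49, 12.83 and 12.95 in the feeder arm, and 11.83 at day 0, 11.87 and 11.97 at day 7, 12.20 and 12.27 at day 17, and 12.13 and 12.19 at day 32 in the feeder-free arm. The difference was 0.67 ± 0.06 (SE, limma, adjusted p = 7.887e-05). All 4 genes kept the call under all 18 alternatives run.

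At day 32 the difference was 1.28 for Atp6ap2, 0.88 for Atp6v0d1, 0.90 for Atp6v0b and 0.79 for Atp6v1f, while the fibroblast list averaged 8.28 in the feeder arm and 8.25 in the feeder-free arm. At day 0, with that list at 10.28 in the feeder arm and 8.20 in the feeder-free arm, the same differences were 0.50, 0.47, 0.22 and 0.77. The part of fibroblasts in these differences was not tested.

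In all, 14 of 45 genes passed (31.1%), against 32.7% of all genes. In the feeder arm 9 of them were higher and 5 lower, against 15.5% and 17.2% of all genes. After a further quantile normalization 10 were higher and 2 lower, against 16.9% and 15.5% of all genes. The other 5 higher genes were Lamp2 (0.52), Ctsh (0.40), Atp6v0e2 (0.30), Atp6v1g1 (0.26) and Atp6v0c (0.26). Lower ones were Cts7 (-0.37), Atp6v0a4 (-0.36), Lamp1 (-0.30), Atp6v1b2 (-0.29) and Cts8 (-0.22), of which Cts7 and Cts8 were dim. Of 18 alternatives, 10 lost the call of Lamp2, 10 that of Atp6v0a4, 9 that of Atp6v0c, 9 that of Atp6v1g1 and 7 that of Atp6v0e2. Lamp2 differed by -0.32 at day 0 and by 0.86, 0.51 and 0.82 at days 7, 17 and 32. The calls of Cts7, Cts8 and Lamp1 were lost after the quantile normalization. Over all alternatives, that of Cts8 was lost in 13 of 17, that of Cts7 in 5 of 17 and that of Lamp1 in 2 of 18. Of the 23 pump genes, 7 passed as higher and 2 as lower, where all genes had 15.5% and 17.2%. With 1 array omitted, the count over the 45 genes was 9 if this was the first feeder-free one of day 7. It was 8 without the first feeder-free array of day 17, the second of day 32, or the feeder array of day 17 or 32. Of all genes, 29.7% passed where the count was 9, and 25.8% to 28.5% where it was 8.

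**Figure D5:**
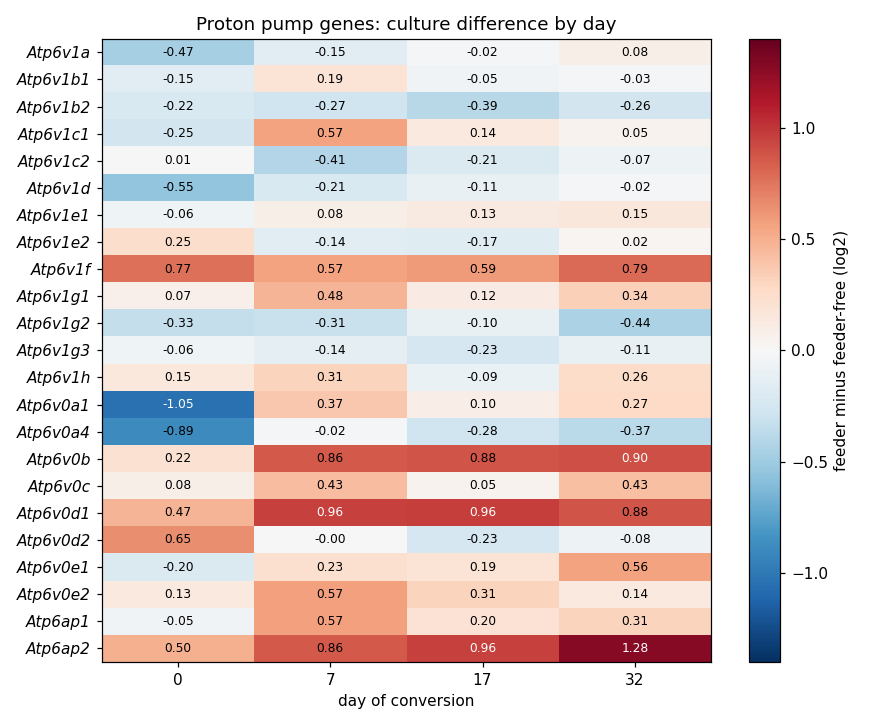
Difference between the arms (feeder minus feeder-free, log2, colour and number) for the 23 pump genes (vertical axis) on each day (horizontal axis); with 2 feeder-free arrays their mean was used. Atp6ap2, Atp6v0d1, Atp6v0b and Atp6v1f are among 7 genes above 0 on all 4 days, while Atp6v0a1 is at -1.05 at day 0 and above 0 afterwards.

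Other lysosomal genes were read from 6 lists. At day 32 against day 0, 17.4% of all genes rose and 13.7% fell. Of 27 acid hydrolases measured 10 rose and 5 fell, with a median of 0.11 against 0.05 over all genes. Neu1, a sialidase, rose by 2.17 ± 0.36, Glb1, a beta-galactosidase, by 1.78 ± 0.24 and Arsb, a sulfatase, by 1.78 ± 0.49, while Gaa, which breaks down glycogen, changed by -1.68 ± 0.14, Arsa by -1.03 ± 0.16 and the phospholipase Pla2g15 by -0.68 ± 0.13 (log2 and SE, limma). From day 7 to day 17, 10 of the hydrolases rose and 1 fell, with a median of 0.50 against 0.09 over all genes, of which 9.1% rose and 3.65% fell. After the quantile normalization 5 rose and 2 fell, against 4.14% and 4.12% of all genes.

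Of 18 genes of the lysosomal membrane and transport 4 rose and 2 fell. Scarb2, the sorting receptor of glucocerebrosidase, rose by 2.06 ± 0.20, the cholesterol exporter Npc1 by 1.10 ± 0.26 and the tetraspanin Cd63 by 0.89 ± 0.14, and the cation channel Mcoln1 changed by -0.57 ± 0.13. In the comparison of the arms 10 of these 18 were higher and 4 lower in the feeder arm, where 15.5% of all genes were higher and 17.2% lower. Of 5 genes for mannose 6-phosphate sorting, by which new hydrolases reach the lysosome, 1 rose and 3 fell. The large receptor Igf2r fell by 2.99 ± 0.32 on the log2 scale, sortilin, Sort1, fell by 1.98 ± 0.32, while the small receptor M6pr rose by 0.32 ± 0.09, a call lost after the quantile normalization (log2 and SE, limma).

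Of 7 cystatins, inhibitors of cysteine cathepsins, 2 rose, Cst3 by 2.73 ± 0.35 and Csta by 0.44 ± 0.12, and 0 fell. Of 5 transcription regulators of lysosomal genes, Tfec rose by 1.43 ± 0.23 and the repressor Zkscan3 by 0.80 ± 0.15, and Tfeb changed by -0.99 ± 0.18. Tfe3, also listed, was not measured. Of 15 autophagy genes 1 rose and 3 fell, among them the cargo receptor Sqstm1 by 0.94 ± 0.15 on the log2 scale (log2 and SE, limma).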

How the data were processed

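Total RNA of 11 samples was hybridised to Affymetrix Rat Gene 1.0 ST arrays. The authors deposited a table of log2 values. The submitters' processing notes name RMA and give no version or options. All 11 arrays share a median of 8.97, and the step that set it is not given in the sources used here. Scanner files were not used, so background and saturation could not be examined per probe, and the precision is limited by the number of arrays. Of 29214 probe sets 15310 had 1 gene symbol, 323 several and 13581 none in the platform annotation. Among those with several, 2 included a symbol of these families and were left out. The probe set with the highest mean was kept for each of 527 genes with more than 1, leaving 14506 genes. No filter on dim genes was applied.

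Groups came from the labels. limma 3.58.1 in R 4.3.3 (lmFit, eBayes) was fitted to all genes and arrays with terms for day and culture. A fit with 1 mean for each of the 8 groups served to compare changes between the arms. P-values were adjusted by Benjamini-Hochberg over all genes and called under 0.05. Each error of a change is the SE of the fit. A change within 1 arm is a difference of group means, with no test. The calculation was also run on simulated data with independent noise of the spread of the 8-group fit. That run cannot show how the fit for day and culture behaves where the arms change differently. Figures were drawn with matplotlib 3.10.9.

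The gene families, lists and tests were chosen with earlier results of these data known, and members were then taken by symbol. Values in every array are given for the 10 genes with the largest change to day 32, the 6 with the largest difference of change to day 7, the 4 with the largest culture difference and the 3 with the highest mean. Pathway lists were described by up to 3 called genes in each direction. The receptor symbols that stand for background were widened to newer names after the files were seen. The alternatives were another choice of probe set, a filter on the dimmest 25% of genes, quantile normalization, trend and robust variance, array weights, a replicate block, 8 group means, the feeder-free arrays alone, days 17 and 32 alone, and leaving out each array.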

Additional observations from a re-analysis of the deposited data

Results flagged for a closer look

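The items below are genes whose change differed between the feeder arm and the feeder-free arm by limma's test of the difference, each given as the log2 change in the feeder arm minus that in the feeder-free arm. From day 0 to day 7 the difference was -2.31 for Ctsc, -2.01 for Ctsz, -1.03 for Ctsl, -0.97 for Ctsf, -0.84 for Ctsq and -0.66 for Atp6v0d2. On the positive side it was 1.42 for Atp6v0a1, 1.33 for Lamp3, 1.19 for Lamp2, 0.87 for Atp6v0a4, 0.82 for Atp6v1c1, 0.64 for Atp6v0b and 0.62 for Atp6ap1. From day 7 to day 17 it was 2.92 for Ctsc, 1.59 for Ctsz, 1.12 for Ctsl, 0.98 for Ctsq, 0.72 for Ctsd and -1.20 for Lamp3. Ctsq, Atp6v0d2 and Lamp3 were dim in every group. Each feeder value is 1 array, and so is the feeder-free value of day 0, which enters every difference to day 7. An odd array and an effect of the culture therefore cannot be told apart.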

How the results depend on the processing

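The numbers of the 45 genes called moved by more than 1.5 times under several settings. For day 7 against day 0, 5 genes passed, and 8 did with array weights, 14 with 8 group means and 22 with the feeder-free arrays alone; the shares of all genes were 16.0%, 19.3%, 33.7% and 36.9%. For day 17 against day 7, 4 passed, and 9, 15 and 11 did under the same settings, with 12.8%, 19.7%, 36.9% and 23.8% of all genes. For day 32 against day 17, 0 passed, and 2 did with the feeder-free arrays alone (0.0% and 7.32% of all genes). For day 32 against day 0, 13 passed, and 21 did with 8 group means and 20 with the feeder-free arrays alone (31.0%, 45.3% and 39.4% of all genes). Between the arms 14 passed, and 24 did with 8 group means (32.7% and 53.1% of all genes). For the difference of the change from day 7 to day 17, 6 passed, and 11 did after quantile normalization and 12 with trend and robust variance (19.7%, 23.2% and 23.8% of all genes). Leaving out 1 array gave 2 to 13, 2 to 7, 0 to 0, 8 to 16 and 8 to 15 genes for these comparisons up to that between the arms, and 11 to 13 and 6 to 8 for the changes to day 7 and from day 7 to day 17. In the same order, shares of all genes were 4.72% to 30.7%, 2.51% to 16.2%, 0.0% to 1.6%, 17.5% to 38.1% and 25.8% to 34.3%. For the changes to day 7 and from day 7 to day 17 they were 21.3% to 23.0% and 18.7% to 19.7%. The cause of these movements was not tested.

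The replicate block moved the count to 2 for day 17 against day 7 and to 7 between the arms, and gave 4, 0, 10, 13 and 6 elsewhere. Shares of all genes under it were 6.78% and 23.9%, and 9.13%, 0.0%, 25.4%, 21.1% and 19.6% elsewhere. Same-numbered feeder-free arrays did not deviate together (correlations of 0.03, -0.20 and -0.10 across genes). No pairing by number was thus seen, but the correlations cannot show whether same-numbered arrays share a culture. Results for single genes were followed only where the gene was called, and for Ctsb and Lamp1 at day 32 against day 0. Over their alternatives, 851 kept their side of the threshold, 122 lost it and 0 reversed. Calls gained by other genes are not in these numbers. Where an array was the sole one of its group, leaving it out made a difference of change impossible to estimate. Slide and scan date were not given, and the background correction could not be varied. Dim genes have compressed changes, since RMA draws low values together.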
